A study of Mus musculus with 4 samples.

Results

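The 9 genes described here are the immediate early genes Fos, Fosb, Jun, Junb, Jund, Atf3, Egr1, Ier2 and Ier3, taken by symbol as 9 of the 27998 genes of a single-cell count matrix of the mouse mammary gland. Each symbol matched 1 gene of the matrix. Immediate early genes are transcribed within minutes of a stimulus without new protein synthesis, through transcription factors that are already bound at their promoters, such as serum response factor with its ternary complex partners and CREB, downstream of ERK, p38 and JNK kinases. Fos and Fosb proteins pair with Jun, Junb or Jund to form AP-1, a dimeric factor that binds TGANTCA sites, and negative feedback from their own targets ends the pulse. The same genes, together with heat shock genes, are known to be induced while tissue is digested to single cells, so in sorted and dissociated cells their level can hold a response to handling as well as the state of the tissue.

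Cells were sorted by flow cytometry from mammary glands of C57BL/B6 mice and profiled with the droplet-based 10x Chromium chemistry, which counts unique molecular identifiers (UMIs) near the 3′ end of polyadenylated transcripts. There were 4 libraries, a Zeb1 MSKO and a control library from mice 9 weeks old and a Zeb1 MSKO and a control library from mice 8 weeks old, so that each genotype had 2 libraries. The labels do not expand MSKO, do not say which part of Zeb1 was deleted, by what Cre line or in which cells, what alleles the controls carried, which markers were used to sort, or whether a library was a single animal or a pool. The study set out to compare the heterogeneity of transcriptomes between the 2 genotypes. The labels used here name no preparation or sequencing run, so a difference between ages cannot be told apart from a difference between preparations or runs.

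Promoter windows from RefSeq (build GRCm38.p6, the assembly of mm10), running from 250 bases before to 50 bases after the start that this RefSeq table gives for a gene, were at hand for 7 of the 9 genes (Fos, Fosb, Jun, Junb, Jund, Atf3 and Ier3). They are shown for the genes that hold the cAMP response element half-site TGACG, the core of the site that CREB and ATF factors recognise, the 1 searched motif that any of the 9 genes held. The half-site, searched on both strands as TGACG or CGTCA, was found in 4 of the 7 windows (Fos, Fosb, Junb and Atf3) and in 20.8% of all 32851 windows of the table. None of the 7 held the AP-1 site TGANTCA (7.81% of all windows), the full palindrome TGACGTCA (1.79%) or a CArG box, the serum response factor site (1.63%). A match is a string of letters and was not tested as a binding site. The 4 windows are printed from 5′ to 3′ along the transcribed strand with the half-site in capitals. In Fos the half-sites begin 129 and 66 bases before the start, in Fosb 60, in Junb 106 and in Atf3 7 bases before it, counted from the RefSeq start. For 2 of the 7 genes the window does not span the start of the GENCODE gene: the Jund window ends upstream of the GENCODE start, and the Atf3 window lies inside the GENCODE gene (chr1:191170296-191218039, minus strand).

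Fos, chr12:85473640-85473939, plus strand: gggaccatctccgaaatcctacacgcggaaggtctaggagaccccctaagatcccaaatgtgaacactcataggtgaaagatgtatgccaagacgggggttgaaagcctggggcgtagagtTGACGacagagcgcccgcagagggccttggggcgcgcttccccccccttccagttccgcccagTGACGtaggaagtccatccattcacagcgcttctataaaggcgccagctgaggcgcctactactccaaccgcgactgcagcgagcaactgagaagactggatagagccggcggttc

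Fosb, chr7:19309996-19310295, minus strand: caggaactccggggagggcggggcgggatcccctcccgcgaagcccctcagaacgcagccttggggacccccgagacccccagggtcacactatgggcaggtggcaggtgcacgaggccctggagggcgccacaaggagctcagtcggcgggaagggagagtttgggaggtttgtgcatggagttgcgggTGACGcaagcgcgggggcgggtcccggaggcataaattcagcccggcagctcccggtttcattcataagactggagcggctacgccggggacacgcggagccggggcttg

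Junb, chr8:84978699-84978998, minus strand: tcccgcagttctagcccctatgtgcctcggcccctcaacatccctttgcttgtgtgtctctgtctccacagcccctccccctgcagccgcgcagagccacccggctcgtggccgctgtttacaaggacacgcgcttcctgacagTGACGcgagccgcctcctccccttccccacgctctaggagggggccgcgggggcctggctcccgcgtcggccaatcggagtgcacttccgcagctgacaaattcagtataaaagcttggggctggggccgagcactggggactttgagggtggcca

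Atf3, chr1:191183284-191183583, minus strand: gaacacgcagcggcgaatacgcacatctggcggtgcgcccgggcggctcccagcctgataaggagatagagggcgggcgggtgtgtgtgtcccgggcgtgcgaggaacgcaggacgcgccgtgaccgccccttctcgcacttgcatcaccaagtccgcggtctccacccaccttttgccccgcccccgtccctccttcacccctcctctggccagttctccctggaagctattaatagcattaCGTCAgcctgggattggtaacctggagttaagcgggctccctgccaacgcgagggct

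The genes lie on chromosomes 12 (Fos), 7 (Fosb), 4 (Jun), 8 (Junb, Jund and Ier2), 1 (Atf3), 18 (Egr1) and 17 (Ier3) of GRCm38. Jun, Junb, Jund and Ier2 have a single exon, Egr1 and Ier3 have 2 exons and Fos, Fosb and Atf3 have 4. In the GENCODE vM21 annotation Jund (chr8:70698949-70700616, plus strand) is overlapped on the other strand by Gm11175, Jun by Junos and the end of Junb by Prdx2, and the sources used here do not say whether counting used the strand. Gm11175 held at most 1.56 CPM in any epithelial class and library and Junos at most 5.60 CPM. Prdx2 held 600.2 to 710.1 CPM in hormone-sensing luminal-like, 290.2 to 378 CPM in luminal progenitor-like and 278 to 413 CPM in basal-like cells, and the part of its transcripts in the Junb counts was not tested.

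The 4 libraries held 7627 to 9790 barcodes and 80853204 to 122122443 UMIs each, and 36470 of 36884 barcodes passed the filters on cells. Cells were assigned to classes by the markers of basal, luminal progenitor and hormone-sensing luminal epithelium, fibroblasts, endothelium and leukocytes, with a threshold set after the scores had been seen, and 33469 cells fell into 1 of these 6 classes (31649 epithelial). The names rest on these markers only, which is what "-like" stands for. Among the 10 leading genes of each class none was a marker of another class. The assignment by the same markers largely fixed this in advance, so it is no check on the names. Basal-like cells numbered 2439 and 2078 in the Zeb1 MSKO and control libraries at 9 weeks and 4816 and 1756 at 8 weeks, luminal progenitor-like cells 3196, 2662, 1663 and 3943 and hormone-sensing luminal-like cells 3112, 2310, 1126 and 2548 in the same order. At 9 weeks the other classes were small, with at most 32 fibroblast-like, 8 endothelial-like and 17 leukocyte-like cells in a library. At 8 weeks the Zeb1 MSKO and control libraries held 541 and 389 fibroblast-like, 357 and 338 endothelial-like and 46 and 47 leukocyte-like cells. Zeb1, the targeted gene, was at or under 1.15 CPM (at most 33 UMIs) in every epithelial class and library, and in fibroblast-like cells it held 53.0 and 73.2 CPM in the Zeb1 MSKO libraries at 9 and 8 weeks, against 85.1 and 60.9 CPM in the control libraries, so the Zeb1 counts are no check on how the libraries were labelled. The Zeb1 MSKO library at 8 weeks stood apart, with the lowest median depth (6376 UMIs per barcode, against 9403 to 10529.5 in the others) and the most basal transcripts in luminal progenitor-like and hormone-sensing luminal-like cells. The 10 basal markers together reached 401 CPM in its luminal progenitor-like cells, against 101 CPM in the control library of that age and 189.7 and 159.5 CPM in the Zeb1 MSKO and control libraries at 9 weeks. Of 16-base cell barcodes, 653 were found in 2 libraries and 8 in 3.

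The 9 genes together made up 0.616% of all UMIs in hormone-sensing luminal-like cells, 1.08% in luminal progenitor-like cells and 0.459% in basal-like cells (means of 4 libraries). Summed over the 9 genes, hormone-sensing luminal-like cells held 6164 ± 1495 CPM, luminal progenitor-like cells 10760.5 ± 3022 CPM and basal-like cells 4589 ± 474 CPM (CPM, a gene's UMIs scaled to a common total of UMIs per class and library; SD, n = 4 libraries). The sum in luminal progenitor-like cells was 1.82 to 2.98 times that of basal-like cells of the same library and higher in each of the 4. In hormone-sensing luminal-like cells it was 0.497 to 0.714 times that of the luminal progenitor-like cells of the same library and lower in each of the 4. Outside the epithelium, fibroblast-like cells held 9171 to 12979 CPM, endothelial-like cells 4994 to 17051 CPM and leukocyte-like cells 1606 to 3897 CPM. The endothelial-like values at 9 weeks, 11578 and 17051 CPM in Zeb1 MSKO and control, rest on 7 and 8 cells.

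**Figure D1:**
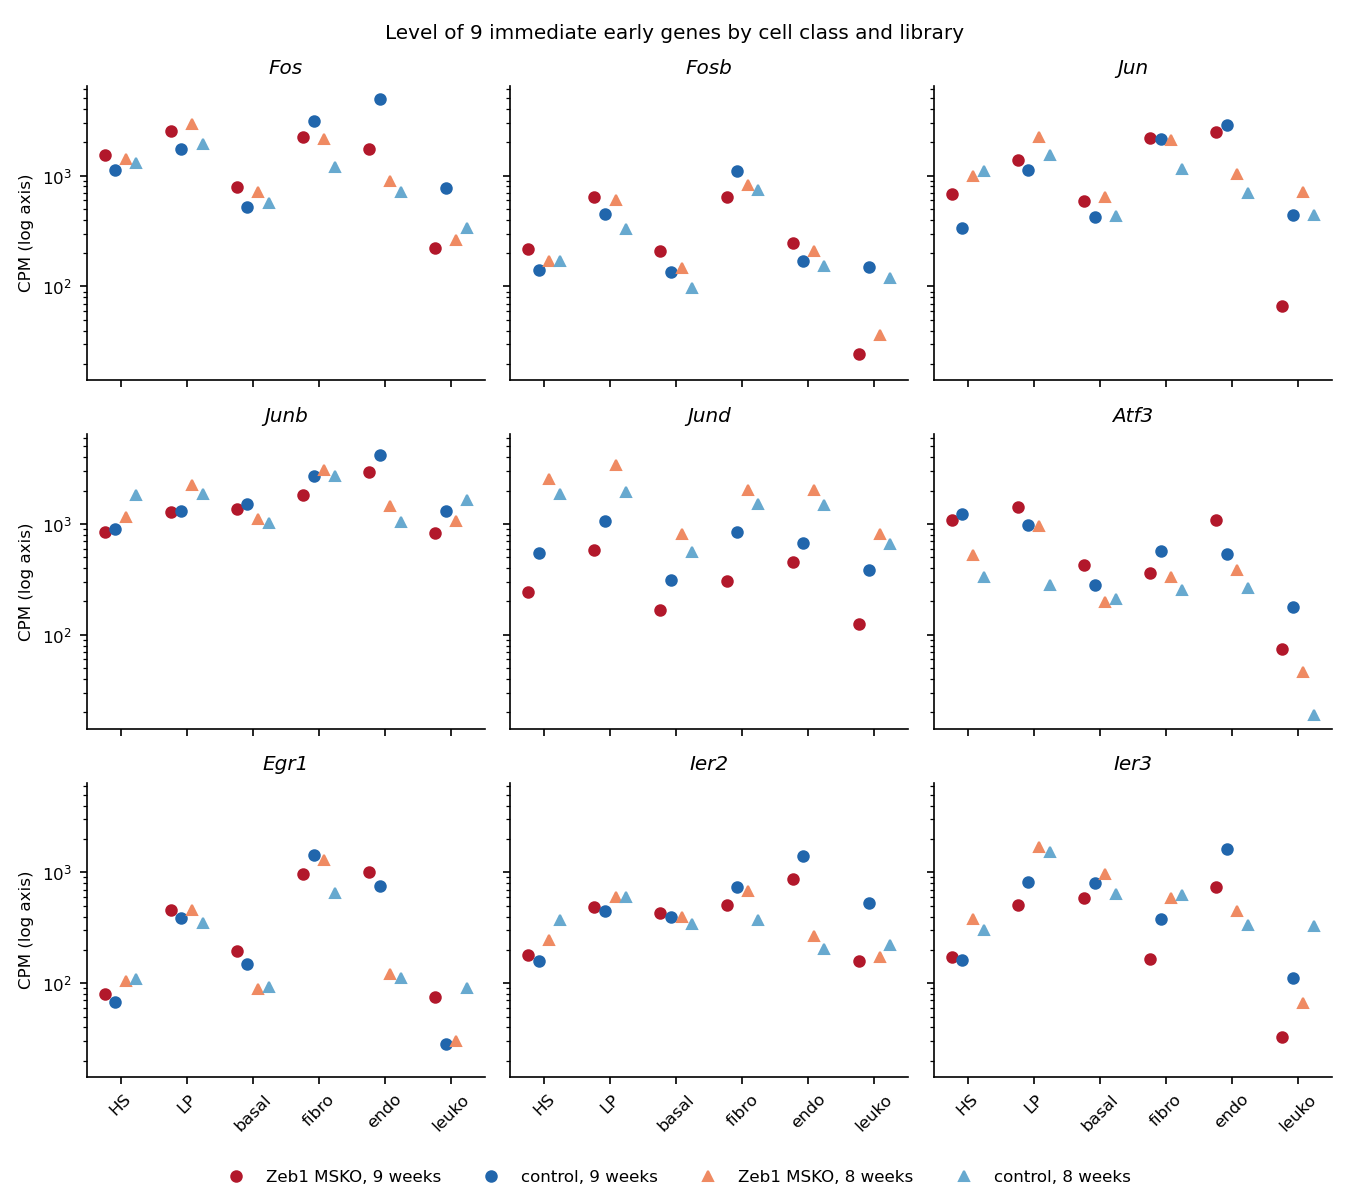
Level of each of the 9 genes in CPM (log axis) in 6 cell classes, with 1 point per library. HS is hormone-sensing luminal-like and LP luminal progenitor-like; Fos, Fosb and Egr1 are higher in LP than in basal cells of every library, and the 9 week points of Jund lie below the 8 week points in all 6 classes.

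Depth differed between the classes, so each cell was also thinned to 2500 UMIs, a number that every kept cell reached. The median thinned hormone-sensing luminal-like cell held 10 and 10 UMIs of the 9 genes in the Zeb1 MSKO and control libraries at 9 weeks and 15 and 16 at 8 weeks. The median luminal progenitor-like cell held 15, 14, 31 and 23 and the median basal-like cell 9, 10, 10 and 7 in the same order. Unthinned, the mean per cell was 70.7 to 113 UMIs in hormone-sensing luminal-like, 78.0 to 134 in luminal progenitor-like and 31.8 to 42.2 in basal-like cells. The order of luminal progenitor-like above basal-like cells thus held in all 4 libraries at equal depth. In the 8 week Zeb1 MSKO library the middle 80% of thinned luminal progenitor-like cells spanned 13 to 74 UMIs, and that of basal-like cells 4 to 23.

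Luminal progenitor-like cells held more Fos, Fosb, Jun, Jund, Atf3, Egr1 and Ier2 than basal-like cells in every library. By edgeR's quasi-likelihood test with the library as a block, 6 of the 9 genes were called higher and 0 lower at an adjusted p under 0.05, where 56.5% of the 14606 genes tested were called in either direction, 29.1% as higher and 27.4% as lower. The median log2 difference of the 9 genes was 1.57, against 0.044 over all genes. No label says whether each library was made from its own animals, and p-values therefore measure the spread between these samples, which may be technical.

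Of the Fos family, Fos held 2501, 1736, 2926 and 1932 CPM for luminal progenitor-like cells (Zeb1 MSKO and control at 9 weeks, then Zeb1 MSKO and control at 8 weeks), against 794, 525, 717 and 567 CPM for basal-like cells of the same libraries. The 2 classes did not overlap, and the fold was 3.15 to 4.08 within a library. The log2 difference was 1.81 ± 0.10 (SE; adjusted p = 1.08e-07). Fosb, whose short splice form acts as an inhibitor of AP-1, ran from 330.0 to 635 CPM in luminal progenitor-like cells and from 96.8 to 208 CPM in basal-like cells, with a log2 difference of 1.80 ± 0.14 (SE; adjusted p = 1.17e-06). Of the Jun family, Jun, the most active partner of Fos, held 1381, 1129, 2207 and 1521 CPM in luminal progenitor-like cells, against 594, 421, 647 and 435 CPM in basal-like cells, in the same order of libraries, with a log2 difference of 1.55 ± 0.21 (SE; adjusted p = 9.25e-05). Jund, a Jun protein with high basal expression in many cell types that is known to slow growth, differed by 1.87 ± 0.19 (SE; adjusted p = 1.10e-05). Its luminal progenitor-like level was 3.35 to 4.26 times the basal-like one within a library, although both levels moved several-fold between libraries. Junb, a weaker activator than Jun that opposes it at some promoters, was 0.861 to 2.03 times as high in luminal progenitor-like as in basal-like cells, above 1 in both libraries at 8 weeks and below 1 in both at 9 weeks, and did not pass the test (log2 difference 0.38 ± 0.23 (SE; adjusted p = 0.177)).

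Atf3, a stress-induced member of the ATF family that pairs with Jun proteins, held 1433, 973, 963 and 279 CPM in luminal progenitor-like cells, against 428, 279, 199 and 212 CPM in basal-like cells, in the same order of libraries. The control library at 8 weeks had the smallest fold (1.31) and the other 3 libraries had folds of 3.35 to 4.84, and the log2 difference was 1.57 ± 0.27 (SE; adjusted p = 5.53e-04). Egr1, a zinc-finger factor driven by serum response factor, held 463, 385, 461 and 350.4 CPM in luminal progenitor-like cells, against 194, 149.5, 87.9 and 93.4 CPM in basal-like cells. Its classes did not overlap and its log2 difference was 1.71 ± 0.24 (SE; adjusted p = 1.07e-04). Ier2, a small nuclear protein, and Ier3, which restrains apoptosis downstream of NF-κB and ERK, had log2 differences of 0.44 ± 0.18 (SE; adjusted p = 0.0642) and 0.48 ± 0.21 (SE; adjusted p = 0.0744) and did not pass the test. Ier3 passed it when a 9 week library was left out. Its log2 difference was 0.64 (adjusted p = 0.0291) with Zeb1 MSKO left out and 0.63 (adjusted p = 0.049) with control left out.

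Hormone-sensing luminal-like cells differed from basal-like cells in both directions. Fos, Fosb, Jun, Jund and Atf3 were called higher and Ier2 and Ier3 lower, 7 of 9 in all, where 70.2% of genes were called, 35.3% as higher and 34.8% as lower. Fos held 1536, 1133, 1403 and 1289.5 CPM in hormone-sensing luminal-like cells in the same order of libraries, 1.94 to 2.27 times the basal-like level within a library, with a log2 difference of 1.10 ± 0.09 (SE; adjusted p = 1.61e-06). Jund and Atf3 differed by 1.25 ± 0.19 (SE; adjusted p = 1.28e-04) and 1.41 ± 0.27 (SE; adjusted p = 6.99e-04). Fosb (0.34 ± 0.13 (SE; adjusted p = 0.0389)) and Jun (0.52 ± 0.21 (SE; adjusted p = 0.0439)) lay close to the threshold, and Fosb missed it under each of the 10 alternatives tried (adjusted p 0.0538 to 0.307). Jun missed it under 5 of them, among them without the Zeb1 MSKO library at 8 weeks (log2 difference 0.44) and without the control library at 8 weeks (0.24). Ier3 held 174, 164, 378 and 301 CPM in hormone-sensing luminal-like cells, against 582, 805, 969.8 and 632 CPM in basal-like cells. It was lower in 4 of 4 libraries, with a log2 difference of -1.60 ± 0.22 (SE; adjusted p = 5.29e-05). Ier2 was lower in 3 of 4 libraries and differed by -0.73 ± 0.19 (SE; adjusted p = 0.00444). Junb (-0.12 ± 0.23 (SE; adjusted p = 0.648)) and Egr1 (-0.45 ± 0.23 (SE; adjusted p = 0.11)) did not pass the test, and Egr1 passed it without the Zeb1 MSKO library at 8 weeks (log2 difference -0.72) and without the control library at 8 weeks (-0.68).

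Set against luminal progenitor-like cells, hormone-sensing luminal-like cells had 7 of the 9 genes called lower and 0 higher, where 56.9% of genes were called, 28.4% as higher and 28.5% as lower. The median log2 difference of the 9 genes was -1.03, against -0.018 over all genes. Egr1 had the largest difference of the 9: it held 80.6, 67.3, 105 and 109.9 CPM in hormone-sensing luminal-like cells, 0.174 to 0.314 times the luminal progenitor-like level of the same library, with a log2 difference of -2.15 ± 0.24 (SE; adjusted p = 2.12e-05). Ier3 (-2.08), Fosb (-1.46), Ier2 (-1.17), Jun (-1.03) and Fos (-0.72) were lower in 4 of 4 libraries (log2 differences; adjusted p from 5.34e-06 to 0.00148). Jund was also lower in 4 of 4 libraries (-0.62 ± 0.19 (SE; adjusted p = 0.0152)), but its adjusted p was 0.0506 without the Zeb1 MSKO library and 0.0789 without the control library at 9 weeks. Junb and Atf3 did not pass the test (-0.50 ± 0.23 (SE; adjusted p = 0.0795) and -0.16 ± 0.26 (SE; adjusted p = 0.643)), and Atf3 was higher in hormone-sensing luminal-like cells of both control libraries and lower in those of both Zeb1 MSKO libraries. Junb passed it without the control library at 8 weeks (log2 difference -0.67; adjusted p = 0.0223). Luminal progenitor-like and hormone-sensing luminal-like cells held the most basal and fibroblast marker transcripts in the Zeb1 MSKO library at 8 weeks. The source of these transcripts was not tested. Without that library 6, 6 and 7 of the 9 genes were called in the 3 comparisons, and 7296, 9429 and 7359 of all genes.

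**Figure D2:**
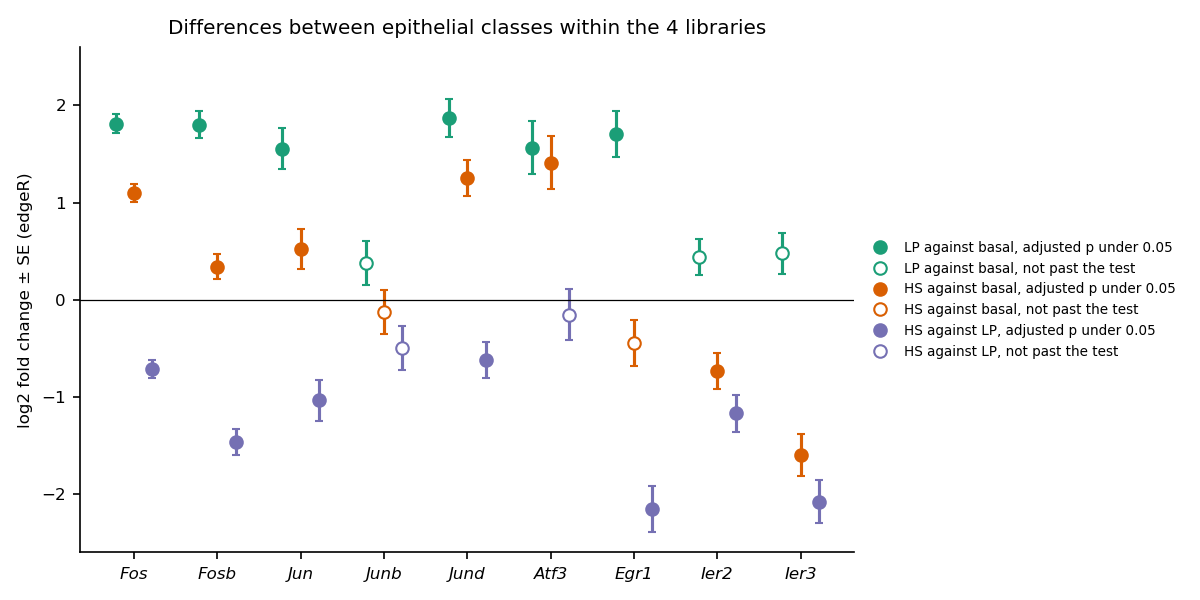
Log2 fold change ± SE of the 9 genes between epithelial classes from edgeR fits with the library as a block (n = 4 libraries; filled points have an adjusted p under 0.05, open points do not). LP against basal lies above 0 for all 9 genes, and HS against LP lies below 0 for all 9, with Junb and Atf3 not past the test.

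The other genes of the response did not follow the 9 genes across classes as a block. Of 10 AP-1 and related bZIP partners, 0 were called higher and 5 lower in luminal progenitor-like against basal-like cells, where 29.1% of all genes were higher and 27.4% lower. Their median log2 difference was -0.30. Among the lower ones were Fosl1, an AP-1 subunit of the Fos family (-1.47 ± 0.25), Batf (-1.61 ± 0.25), Maff (-0.94 ± 0.17) and Ddit3 (-0.53 ± 0.15). In hormone-sensing luminal-like against basal-like cells 1 was higher and 7 lower (35.3% and 34.8% of all genes), and Fosl1 had the largest difference, -5.04 ± 0.29, with a mean of 4.19 ± 3.44 CPM in hormone-sensing luminal-like against 119.6 ± 62.4 CPM in basal-like cells (TMM-scaled; SD, n = 4 libraries). Of 14 other immediate early transcription factors, 4 were higher and 4 lower in luminal progenitor-like against basal-like cells, a share in each direction near that of all genes (29.1% higher and 27.4% lower). Klf6 (1.93 ± 0.14), Ier5 (1.59 ± 0.17) and Klf4 (1.55 ± 0.32) were higher, and Egr2, a paralog of Egr1, was lower (-3.90 ± 0.27). In hormone-sensing luminal-like against luminal progenitor-like cells 1 was higher and 12 were lower (28.4% and 28.5% of all genes). The largest differences of the 12 were those of Nr4a2 (-5.45 ± 0.36), Nr4a3 (-3.09 ± 0.39), Ier5 (-1.98 ± 0.17) and the orphan nuclear receptor Nr4a1 (-1.98 ± 0.24).

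Of 23 feedback regulators, 7 were higher and 9 lower in luminal progenitor-like against basal-like cells, where 29.1% of all genes were higher and 27.4% lower. Of the same 23, 6 were higher and 14 lower in hormone-sensing luminal-like against luminal progenitor-like cells, where these shares were 28.4% and 28.5%. Nfkbia, the inhibitor of NF-κB, was higher (1.77 ± 0.20) and Socs3, the inhibitor of JAK-STAT signalling, lower (-2.35 ± 0.34) in luminal progenitor-like than in basal-like cells. Dusp10, a phosphatase of p38 and JNK, was higher in hormone-sensing luminal-like cells than in basal-like (3.45 ± 0.20) or luminal progenitor-like cells (4.25 ± 0.21). Spry2, an antagonist of receptor tyrosine kinase signalling, was lower there than in either (-3.14 ± 0.14 and -3.32 ± 0.14). Of 12 heat shock genes, 0 were higher and 4 lower in luminal progenitor-like against basal-like cells (29.1% and 27.4% of all genes), led by Hsph1 (-1.20 ± 0.27) and Hsp90aa1 (-1.12 ± 0.19). In each of the 4 libraries their summed level was lower in luminal progenitor-like than in basal-like cells. In hormone-sensing luminal-like cells 0 were higher and 10 lower than in basal-like cells (35.3% and 34.8% of all genes). Of 15 genes of the upstream ERK and SRF pathway, 3 were higher and 8 lower in luminal progenitor-like against basal-like cells (29.1% and 27.4% of all genes), among them the ternary complex factor Elk3 (-2.13 ± 0.16). Mitochondrial transcripts, a sign of RNA quality, were lower in luminal progenitor-like than in basal-like cells for 12 of 13 genes, against 27.4% of all genes (median log2 difference of the 13 -0.54); their part in the differences between classes was not tested.

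From cell to cell within a class and library, the 9 genes varied together. Pearson's r across cells between a gene and the sum of the 9, both as log counts per 10000, was taken in each of the 12 groups of epithelial class and library and is given as the median of the 12; the cells of a group share a library, so no p is given. Over all 6089 genes detected in at least 5% of cells of each group the median was -0.0057. Each of the 9 genes was set against the sum without that gene. Its median was then 0.62 for Jun, 0.59 for Fos, 0.54 for Junb, 0.53 for Fosb, 0.50 for Egr1, 0.43 for Ier2, 0.41 for Atf3, 0.36 for Jund and 0.30 for Ier3. Pair by pair, Fos and Jun were the most alike of the 36 pairs (0.65, from 0.37 to 0.75), followed by Fos and Egr1 (0.47) and Fos and Fosb (0.45). Atf3 and Ier2 were the least alike (0.13, from 0.04 to 0.22). The pairs of Jund with Fos and with Jun went down to -0.04 and -0.02 in single groups. The sum itself had a median r of 0.05 with the log of the cell's total UMIs, between -0.20 and 0.13.

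Of the genes outside the 9, Zfp36, which encodes the RNA-destabilising protein tristetraprolin, was the most like them, with a median r of 0.54 (lowest 0.36, highest 0.68), above 6 of the 9. Zfp36 was set against the sum of all 9, and each of the 9 against the sum without itself. Next came the antiproliferative gene Btg2 at 0.47 (lowest 0.33, highest 0.59), Klf6 at 0.47 (lowest 0.06, highest 0.62) and Socs3 at 0.42 (lowest 0.08, highest 0.68). Of the 20 genes with the highest median r, 9 were on the feedback list (Zfp36, Btg2, Socs3, Dusp1, Rhob, Gadd45b, Cyr61, Nfkbia and Zfp36l1), 4 on the list of other immediate early factors (Klf6, Nr4a1, Csrnp1 and Ier5) and 2 on the heat shock list (Hspa1a and Dnajb1). Ppp1r15a, Pnrc1, Ccnl1 and Pim3 were on none of the lists. The inducible chaperone Hspa1a had a median r of 0.33 (lowest 0.19, highest 0.48) and Dnajb1 of 0.24 (lowest 0.15, highest 0.33), while Hspd1 and Hspe1, the mitochondrial chaperones, had -0.05 and -0.05. The upstream genes were near the background, from -0.03 for Map2k2 to 0.02 for Mapk3.

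**Figure D3:**
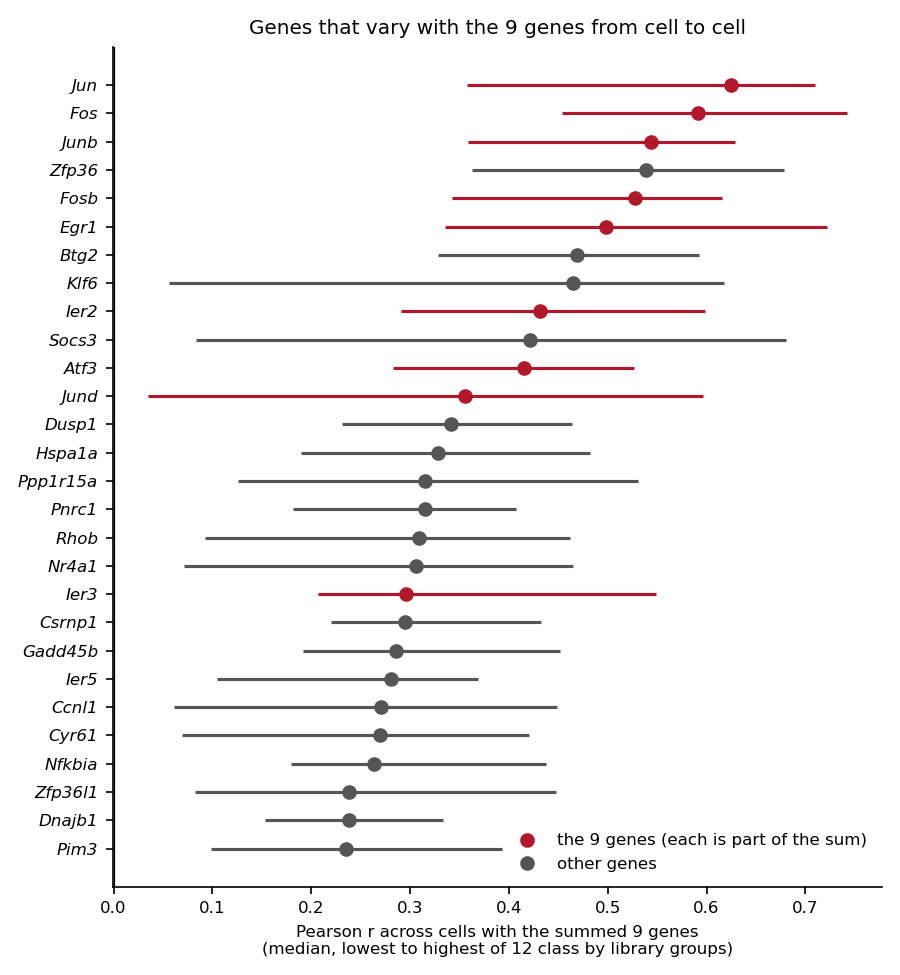
Pearson r across cells between each gene and the summed 9 genes, with the median (point) and the lowest to highest value (line) of 12 epithelial class by library groups, for the 9 genes (red) and 19 other genes with a high median (grey). The red points use the sum without the gene itself, although the legend calls each gene part of the sum. Zfp36, at 0.54, lies among the 9.

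Across the 12 sums of class and library, the mean log2 level of the 9 genes was most like that of Zfp36 (r = 0.98), Tmem168 (0.98), Foxo3 (0.97), Rnf138 (0.95), Map3k1 (0.95), Dusp8 (0.95), Rnpep (0.95), S100g (0.95), Sowahb (0.95) and Zfp277 (0.94) among 7342 genes. The 12 points come from 4 libraries and 3 classes, so these values describe them and carry no p. Zfp36 led both this list and the list across cells. It held 103 to 204 CPM in hormone-sensing luminal-like, 329 to 605 CPM in luminal progenitor-like and 92.6 to 178 CPM in basal-like cells. Each of the 9 was set against the mean of the others, which Jun followed most closely (0.92) and Atf3 least (0.17).

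No difference between Zeb1 MSKO and control passed the test in any of the 9 genes. By edgeR 0 of 9 were called in hormone-sensing luminal-like, luminal progenitor-like and basal-like cells, where the share of all genes called was 0% in each class. At an unadjusted p under 0.05 edgeR had 444, 182 and 63 genes but 0 of the 9 in the 3 classes, and DESeq2 called 30, 6 and 3 genes and 0 of the 9. With the age as a replicate block edgeR called 2, 15 and 25 genes, and still 0 of the 9. On simulated counts the genotype fit without a block for basal-like cells recovered 0.5% of 2-fold and 50% of 4-fold changes. A 2-fold difference could thus go uncalled.

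In each epithelial class both Zeb1 MSKO libraries nevertheless held more Fos than either control library. In hormone-sensing luminal-like cells it held 1536 and 1403 CPM in the Zeb1 MSKO libraries at 9 and 8 weeks, against 1133 and 1289.5 CPM in the control libraries, a log2 difference of 0.32 ± 0.23 (SE). In luminal progenitor-like cells it held 2501 and 2926 CPM in the Zeb1 MSKO libraries at 9 and 8 weeks, against 1736 and 1932 CPM in the control libraries, a log2 difference of 0.51 ± 0.24. In basal-like cells it held 794 and 717 CPM in the Zeb1 MSKO libraries at 9 and 8 weeks, against 525 and 567 CPM in the control libraries, a log2 difference of 0.43 ± 0.24. The groups did not overlap in any of the 3 classes, but the same 4 libraries stand behind all of them. By edgeR the adjusted p was 1.0 in each. Outside the epithelium Fos was lower in Zeb1 MSKO than in control at 9 weeks, where these classes held 7 to 32 cells per library. At 8 weeks the Zeb1 MSKO level was 1.78 times the control level in fibroblast-like, 1.26 times in endothelial-like and 0.766 times in leukocyte-like cells. The share of all genes whose genotypes did not overlap was not counted. TMM-scaled Fosb did not overlap in any of the 3 classes either. In CPM its groups overlapped in hormone-sensing luminal-like cells, with 170.1 CPM in Zeb1 MSKO and 171.3 CPM in control at 8 weeks. Fosb differed by 0.37 ± 0.24, 0.61 ± 0.28 and 0.58 ± 0.32 in hormone-sensing luminal-like, luminal progenitor-like and basal-like cells, and Jun by 0.27 ± 0.57, 0.38 ± 0.32 and 0.50 ± 0.25. In CPM, Jun was higher in Zeb1 MSKO at both ages in luminal progenitor-like and basal-like cells, and in hormone-sensing luminal-like cells at 9 weeks but not at 8 weeks. Junb, Atf3, Egr1, Ier2 and Ier3 had log2 differences between -0.41 (Junb in hormone-sensing luminal-like cells) and 0.90 (Atf3 in luminal progenitor-like cells). Jund went in opposite directions at the 2 ages. It was 0.439, 0.547 and 0.533 times the control level in hormone-sensing luminal-like, luminal progenitor-like and basal-like cells of the Zeb1 MSKO library at 9 weeks, and 1.37, 1.77 and 1.46 times at 8 weeks.

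The sum of the 9 genes averaged 6289 ± 1741 CPM in Zeb1 MSKO and 6039 ± 1899 CPM in control in hormone-sensing luminal-like cells (SD, n = 2 each). It averaged 12198 ± 4127 CPM in Zeb1 MSKO and 9323 ± 1444 CPM in control in luminal progenitor-like cells and 4925 ± 217 CPM in Zeb1 MSKO and 4253 ± 419.8 CPM in control in basal-like cells. Two-sided exact permutation tests of the sum gave p = 0.67, 0.67 and 0.33, and 0.33 is the smallest that 2 against 2 libraries allow. At 9 weeks the sum in Zeb1 MSKO was 1.08, 1.12 and 1.05 times that in control in the 3 classes, and at 8 weeks 1.02, 1.46 and 1.28 times. With the 8 week Zeb1 MSKO library left out, the difference for luminal progenitor-like cells was -42.7 CPM in place of 2876 CPM. The genotype effect differed between classes for 0 of the 9 genes and for 0% of the genes tested (edgeR interaction with the library as a block; 567 genes and 0 of the 9 at an unadjusted p under 0.05; DESeq2 23 genes and 0 of the 9). Of the lists, none of the AP-1 partners, other immediate early factors, feedback regulators, heat shock genes, upstream genes or mitochondrial genes was called by edgeR in any of the 3 classes.

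**Figure D4:**
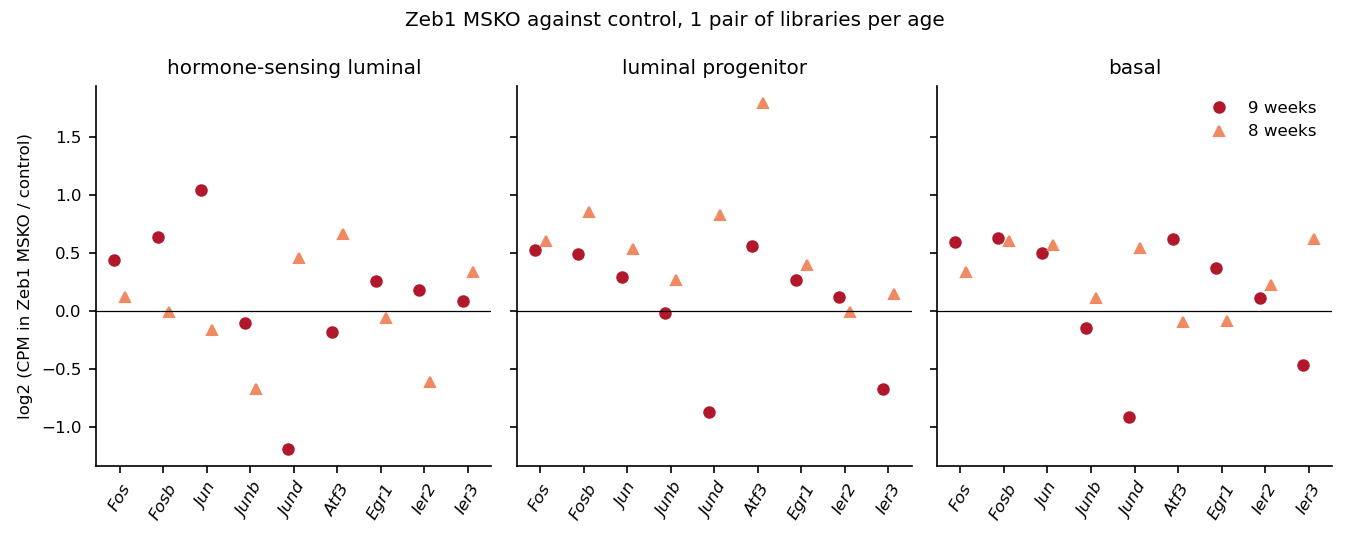
Log2 ratio of CPM in Zeb1 MSKO over control for each of the 9 genes in the 3 epithelial classes, with 1 pair of libraries at 9 weeks (circles) and 1 at 8 weeks (triangles). Fos lies above 0 in all 6 pairs, and Jund lies below 0 at 9 weeks and above 0 at 8 weeks in each class.

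Between the ages Jund was lower and Atf3 higher at 9 weeks in both genotypes in each of the 6 classes, although neither passed the edgeR test. Jund held 242 and 551 CPM in the Zeb1 MSKO and control libraries at 9 weeks, against 2552 and 1862 CPM at 8 weeks, in hormone-sensing luminal-like cells. It held 577 and 1055 CPM in the Zeb1 MSKO and control libraries at 9 weeks, against 3435 and 1941 CPM at 8 weeks, in luminal progenitor-like cells. It held 168 and 315 CPM in the Zeb1 MSKO and control libraries at 9 weeks, against 806 and 553 CPM at 8 weeks, in basal-like cells. In each of the 6 classes the 4 libraries came in 1 order, with Zeb1 MSKO at 8 weeks the highest, then control at 8 weeks, control at 9 weeks and Zeb1 MSKO at 9 weeks, and the ages did not overlap. How many of all genes had ages that did not overlap was not counted. The log2 differences of 9 against 8 weeks were -2.44 ± 0.44 (SE; adjusted p = 0.181) in hormone-sensing luminal-like, -1.68 ± 0.36 (SE; adjusted p = 0.123) in luminal progenitor-like and -1.55 ± 0.33 (SE; adjusted p = 0.0634) in basal-like cells by edgeR. None passed the threshold there, but 218 of 13090, 365 of 12846 and 331 of 12929 genes had a more negative fold change, and DESeq2 called Jund in each epithelial class (adjusted p 5.59e-07, 1.07e-04 and 6.89e-05).

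The library with the least Jund also had the least of the 4 markers shared by both luminal classes (Krt8, Krt18, Krt19 and Epcam). In hormone-sensing luminal-like cells these summed to 14116 and 25808 CPM in the Zeb1 MSKO and control libraries at 9 weeks, against 26498 and 25225 CPM at 8 weeks, and in luminal progenitor-like cells to 8830.1 and 12953 CPM, against 13174 and 15288 CPM. Their part in the Jund difference was not tested.

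Atf3 held 1093 and 1239 CPM in the Zeb1 MSKO and control libraries at 9 weeks, against 530.4 and 335 CPM at 8 weeks, in hormone-sensing luminal-like cells. It was higher at 9 weeks in both genotypes in all 6 classes. The ages did not overlap in any of the 3 epithelial classes, a trait not counted over all genes. Its log2 differences were 1.48 ± 0.29 (SE; adjusted p = 0.201) in hormone-sensing luminal-like, 1.01 ± 0.52 (SE; adjusted p = 0.419) in luminal progenitor-like and 0.71 ± 0.23 (SE; adjusted p = 0.161) in basal-like cells. Ier3 was lower at 9 weeks in both genotypes in the luminal classes, with log2 differences of -0.96 ± 0.21 (SE; adjusted p = 0.231) in hormone-sensing luminal-like and -1.25 ± 0.25 (SE; adjusted p = 0.106) in luminal progenitor-like cells, and of -0.27 ± 0.26 (SE; adjusted p = 0.588) in basal-like cells, where the genotypes went opposite ways. Junb and Jun were lower at 9 weeks in both luminal classes and both genotypes. Junb differed by -0.71 and -0.63 and Jun by -0.98 and -0.54 in hormone-sensing luminal-like and luminal progenitor-like cells, while Junb was higher in basal-like cells (0.38 ± 0.16 (SE; adjusted p = 0.249)). Egr1 differed by 0.85 ± 0.20 (SE; adjusted p = 0.0829) in basal-like, 0.10 ± 0.20 (SE; adjusted p = 0.855) in luminal progenitor-like and -0.49 ± 0.18 (SE; adjusted p = 0.408) in hormone-sensing luminal-like cells. Ier2 differed by -0.81, -0.34 and 0.091 in hormone-sensing luminal-like, luminal progenitor-like and basal-like cells. Fos and Fosb had log2 differences between -0.16 (Fos in luminal progenitor-like cells) and 0.42 (Fosb in basal-like cells).

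By edgeR 0 of 9 genes were called between the ages in any of the 3 classes, where 0.0458% (hormone-sensing luminal-like), 0.841% (luminal progenitor-like) and 1.89% (basal-like) of all genes were called; 0.0467% of genes in luminal progenitor-like and 0.116% in basal-like cells were called higher. At an unadjusted p under 0.05 edgeR had 7, 4 and 3 of the 9 genes in hormone-sensing luminal-like, luminal progenitor-like and basal-like cells, and 1506, 1879 and 2617 of the 13090, 12846 and 12929 genes tested. DESeq2 called 3, 2 and 2 of the 9, and 439, 499 and 707 of all genes. With the genotype as a block edgeR called 3, 359 and 601 of all genes, and of the 9 it called Jund in basal-like cells (log2 difference -1.60) and Jund (-1.70), Atf3 (1.22) and Ier3 (-1.28) in luminal progenitor-like cells, and none in hormone-sensing luminal-like cells. Without the control library at 9 weeks edgeR called Jund in all 3 classes (log2 differences -3.10, -2.17 and -2.10 in hormone-sensing luminal-like, luminal progenitor-like and basal-like cells) and 44, 329 and 914 of all genes. The 9 week side is then the Zeb1 MSKO library alone. It is assumed to vary as the 8 week libraries do, and these alone give the spread. A test of whether the age difference differed between classes, added after the data had been seen, called 0 of 9 genes and 0.0205% of all genes (985 genes and 6 of the 9 at an unadjusted p under 0.05; DESeq2 83 genes and 2 of the 9), with the lowest p for Egr1 (unadjusted 4.07e-04, adjusted 0.39).

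**Figure D5:**
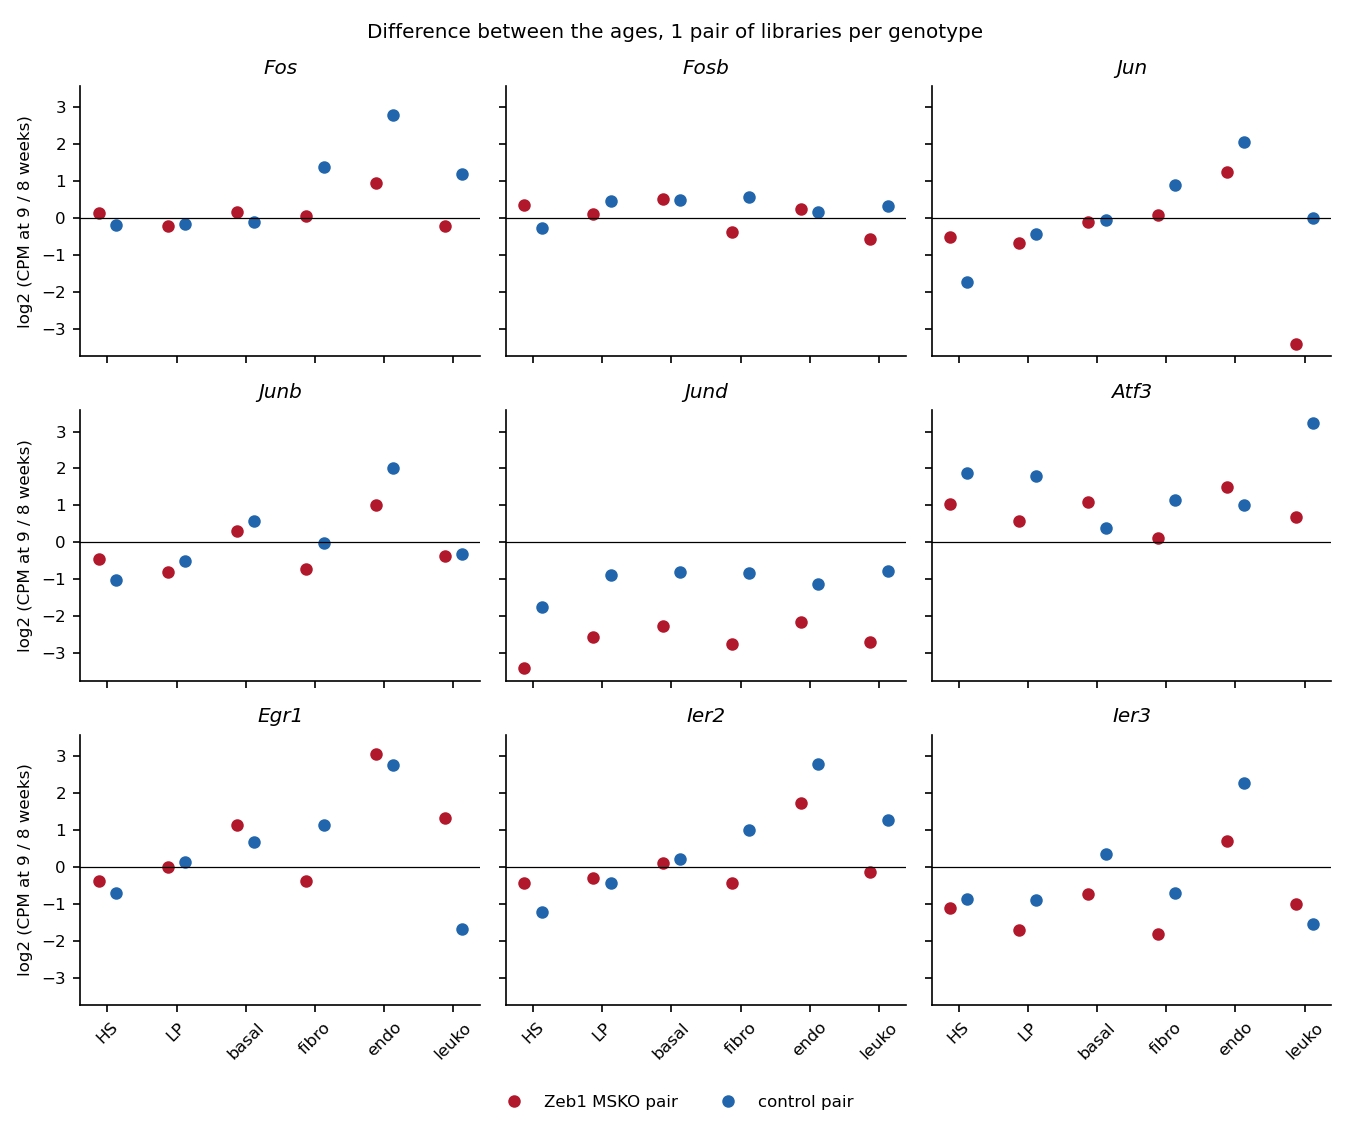
Log2 ratio of CPM at 9 weeks over 8 weeks for each of the 9 genes in 6 classes, with 1 pair of libraries per genotype (red Zeb1 MSKO, blue control). Jund lies below 0 and Atf3 above 0 in all 12 pairs; the endothelial-like (endo) and leukocyte-like (leuko) points at 9 weeks rest on 7 to 17 cells.

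Some heat shock genes were lower at 9 weeks in 2 of the 3 epithelial classes. Of the 12, 4 were called lower and 0 higher in basal-like cells (median log2 difference -0.86 against 0.026 over all genes) and all 12 fitted values were negative; 1.77% of all genes were called lower in these cells and 0.794% in luminal progenitor-like cells. They were Hsph1 (-1.96 ± 0.21), Hspa1a (-1.39 ± 0.23), Dnaja1 (-1.10 ± 0.17) and Hspa8 (-0.87 ± 0.15), all chaperones or co-chaperones of the cytosol. In luminal progenitor-like cells 2 were called lower, Hspa1a (-2.62 ± 0.25) and its twin Hspa1b (-1.81 ± 0.19), whose reads can be split between near-identical copies, and again all 12 fitted values were negative. Hspa1a held 168 and 187 CPM in the Zeb1 MSKO and control libraries at 9 weeks, against 1389 and 851 CPM at 8 weeks, in luminal progenitor-like cells. In hormone-sensing luminal-like cells 0 were called (median -0.18, 3 of 12 positive). The summed heat shock level was 9646 and 9095 CPM in the Zeb1 MSKO and control libraries at 9 weeks, against 14316 and 14018 CPM at 8 weeks, in basal-like cells. In luminal progenitor-like cells it was 6772 and 6207 CPM in the Zeb1 MSKO and control libraries at 9 weeks, against 11767 and 10672 CPM at 8 weeks. In these 2 classes it parted the ages and not the genotypes. In hormone-sensing luminal-like cells it was 6495 and 6912 CPM in the Zeb1 MSKO libraries at 9 and 8 weeks, against 5391 and 5766 CPM in the control libraries, so there it parted the genotypes and not the ages. Whether these ages differed in handling is not given, and its part in the difference was not tested.

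Of the 23 feedback regulators, 3 were lower and 1 higher at 9 weeks in basal-like cells, 3 were lower and 0 higher in luminal progenitor-like cells and 0 were called in hormone-sensing luminal-like cells. Of all genes, 1.77% were called lower and 0.116% higher in basal-like cells, and 0.794% lower and 0.0467% higher in luminal progenitor-like cells. In hormone-sensing luminal-like cells 0.0458% of all genes were called lower and 0% higher. Tnfaip3, an inhibitor of NF-κB signalling, was lower at 9 weeks in 2 classes, luminal progenitor-like (-2.34 ± 0.25) and basal-like (-1.52 ± 0.29). The phosphatases Dusp2 (-3.35 ± 0.41) and Dusp4 (-1.64 ± 0.31) were lower in basal-like cells, where Dusp2 averaged under 10 CPM at either age. Nfkbia (-1.77 ± 0.22) and Gadd45b (-1.34 ± 0.18) were lower in luminal progenitor-like cells. Nfkbia held 1006 and 703 CPM in the Zeb1 MSKO and control libraries at 9 weeks, against 2981 and 2967 CPM at 8 weeks, there. Socs3 was higher in basal-like cells (1.46 ± 0.20), where it held 738 and 551 CPM in the Zeb1 MSKO and control libraries at 9 weeks, against 221 and 224 CPM at 8 weeks. Klf2 was the 1 called gene of the other immediate early factors, lower in luminal progenitor-like (-1.40 ± 0.19) and in basal-like cells (-1.16 ± 0.22). Of the AP-1 partners and the upstream genes, 0 were called in any class. One mitochondrial gene was lower in basal-like cells and 0 were called in the other 2 classes. The fibroblast markers counted in luminal progenitor-like cells differed between the ages. Over 8 markers they summed to 4.40 and 3.92 CPM in Zeb1 MSKO and control at 9 weeks, against 83.8 and 23.1 CPM at 8 weeks. The same libraries held 32 and 25 fibroblast-like cells at 9 weeks, against 541 and 389 at 8 weeks. The source of these marker transcripts was not tested.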

How the data were processed

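Single-cell 3′ RNA-seq of sorted mouse mammary cells gave 4 libraries, from Zeb1 MSKO and control mice at 9 and 8 weeks. The deposited values were raw UMI counts per gene and barcode in 1 aggregated matrix, which the authors produced using Cell Ranger 2.1.0 with the mm10 build, per the submitters' processing notes; whether depth was equalised between libraries, and whether counting used the strand, is not given. Barcodes were assigned to libraries by their suffix, per the labels. Cells with at least 500 genes and at most 10% mitochondrial UMIs were kept. A cell's score for a class was the mean log2(1 + counts per 10000) over its markers, and a class was given where the top score was at least 0.9, led the next by at least 0.5 and the next was under 0.9; these values were set after the scores had been seen. No doublet caller was run, and 2317 cells with markers of 2 classes were left out. Counts were summed per class and library and divided by the class total (CPM), and the sums were tested with edgeR 4.0.16 in R 4.3.3 (TMM scaling, default filter on low counts, quasi-likelihood test, Benjamini-Hochberg adjustment over all genes, threshold 0.05). Classes were compared with the library as a block; SE is the log2 fold change divided by the square root of F. Fits were tested on simulated counts with known changes in 200 genes. In basal-like cells the genotype fit recovered 0.5% of 2-fold and 50% of 4-fold changes, and the age fit 21.5% and 85%. The fit of luminal progenitor-like against basal-like cells recovered 49% and 91%. Alternatives were DESeq2 1.42.0, its size factors, no filter, stricter gates (both values doubled), leaving out the 10% of cells with the most UMIs, leaving out each library, and other blocks. Zeb1 MSKO and control libraries of the same age share that label and deviated together from their genotype means (r = 0.45, 0.35 and 0.28 across genes in basal-like, luminal progenitor-like and hormone-sensing luminal-like cells), so a fit with age as a replicate block is given beside the genotype result. The 9 genes and all lists were chosen with earlier results of these data known. Beside the 9 genes, the text names, per list and comparison, up to 4 called genes with the largest absolute log2 fold change, the 20 genes most like the 9 across cells and the 10 most like them across sums; genes given at the ends of a range, and the mitochondrial chaperones, were chosen after their values were seen. One of the 20 genes is not reported here.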

Additional observations from a re-analysis of the deposited data

Results flagged for a closer look

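Jund stood out because its difference between Zeb1 MSKO and control had opposite directions at the 2 ages in all 6 classes. At 9 weeks the level in Zeb1 MSKO was 0.439 times that in control in hormone-sensing luminal-like, 0.547 times in luminal progenitor-like, 0.533 times in basal-like, 0.358 times in fibroblast-like, 0.674 times in endothelial-like and 0.323 times in leukocyte-like cells. At 8 weeks the ratios were 1.37, 1.77, 1.46, 1.34, 1.37 and 1.23 in the same order of classes. With 1 library per genotype and age the difference between the ages was not tested, and the 6 classes share their libraries.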

How the results depend on the processing

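The genotype comparison called 0 of the 9 genes under every alternative in each class, the replicate block (the age that Zeb1 MSKO and control libraries share) included, although the number of all genes called with that block was 2, 15 and 25 in hormone-sensing luminal-like, luminal progenitor-like and basal-like cells, against 0 without it. With no filter on low counts 3, 87 and 51 genes were called. With the replicate block the log2 difference of Jund changed sign, to -0.32, -0.074 and -0.22 in the 3 classes, and that of Ier2 in luminal progenitor-like cells was 0.0068. Leaving out 1 library turned the sign of several genotype differences. Their ranges in hormone-sensing luminal-like cells were Jun -0.34 to 1.33, Junb -0.82 to 0.13, Jund -2.24 to 1.33, Atf3 -0.59 to 1.36, Egr1 -0.18 to 0.47, Ier2 -0.75 to 0.42 and Ier3 -0.34 to 0.75. In luminal progenitor-like cells they were Junb -0.31 to 0.40, Jund -1.39 to 1.09, Ier2 -0.21 to 0.24 and Ier3 -1.21 to 0.43, and in basal-like cells Junb -0.31 to 0.19, Jund -1.45 to 0.88, Atf3 -0.31 to 0.73, Egr1 -0.47 to 0.61 and Ier3 -0.37 to 0.43. The difference of the summed level ranged over -1094 to 1592 CPM in hormone-sensing luminal-like and -42.7 to 5794 CPM in luminal progenitor-like cells. Between the ages, 0 of the 9 genes were called in the test as reported, and in hormone-sensing luminal-like, luminal progenitor-like and basal-like cells 3, 2 and 2 were called by DESeq2, 2, 3 and 3 with no filter, and 0, 3 and 1 with the genotype as a block. Over all genes the test as reported called 6, 108 and 244, DESeq2 439, 499 and 707, the test with no filter 226, 1074 and 1516, and that with the genotype as a block 3, 359 and 601. Leaving out the 10% of cells with the most UMIs gave 1 of the 9 in basal-like cells, where 352 of all genes were called. Leaving out 1 library leaves 1 genotype or age with a lone library, assumed to vary like the pair it is set against. The age difference of Fos in basal-like cells was 0.14 with stricter gates, and that of Egr1 in luminal progenitor-like cells -0.011 without the deepest cells. Leaving out 1 library, age differences ranged for Fos -0.22 to 0.28 and Fosb -0.25 to 0.45 in hormone-sensing luminal-like, Fos -0.43 to 0.12, Fosb -0.057 to 0.70 and Egr1 -0.047 to 0.26 in luminal progenitor-like and Fos -0.33 to 0.22, Jun -0.40 to 0.13 and Ier3 -0.54 to 0.052 in basal-like cells. Between classes, hormone-sensing luminal-like against basal-like cells had 4 of the 9 called with no library block. Of all genes 8556 were then called, against 10247 with the block. Jund was among the calls lost there (edgeR adjusted p = 0.0819), and it was also lost against luminal progenitor-like cells (edgeR adjusted p = 0.679). Leaving out 1 library, Junb in hormone-sensing luminal-like against basal-like cells ranged over -0.43 to 0.084. Atf3 in hormone-sensing luminal-like against luminal progenitor-like cells ranged over -0.34 to 0.093. DESeq2 called 2 of the 9, and 83 of all genes, for an age difference that differed between classes. In luminal progenitor-like against basal-like cells 7 of the 9 were called without either 9 week library, against 6. Of all genes 7474 were called without Zeb1 MSKO and 6576 without control at 9 weeks, against 8254. In hormone-sensing luminal-like against luminal progenitor-like cells 8 were called without the control library at 8 weeks, against 7. Of all genes 7199 were called there, against 8304. The causes of these shifts were not tested. Cell number limits the endothelial-like and leukocyte-like values at 9 weeks, which rest on 7 to 17 cells.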
